A study of Mus musculus with 1115 samples.

Results

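The axon guidance ligands and receptors are the gene families by which a growing axon or migrating cell reads its surroundings. They were taken from the deposited count table by symbol: class 3 to 7 semaphorins, plexins, neuropilins 1 and 2, ephrins and Eph receptors of the A and B classes, Robo receptors, Slits, Unc5 receptors, Dcc and the netrins. This gave 66 of 16839 genes, of which 63 encode a ligand or receptor and 3 are transcripts antisense to Plxna4. Single cells of the embryonic day 13.5 cerebral cortex of C57BL/6 mice were sequenced with a modified Smart-seq2 method, a full-length method without molecular identifiers. The embryos had been electroporated in utero with 1 plasmid carrying both a CAG promoter driving mRFP and a Hes5 promoter driving GFP, and every cell of both groups carried it. Hes5 is a Notch target, so its promoter marks cells with active Notch signalling. Of 1115 cells, the Hes5_GFP group held 65.6%, sorted as mRFP+GFP+, and the CAG_mRFP group 34.4%, sorted as mRFP+GFP-. The authors classed 57.04% of cells as radial glial cells (RGCs, the cortical stem cells), 17.1% as intermediate progenitor cells (IPCs, their dividing progeny) and 25.8% as excitatory neurons (ENs).

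The sort day was used as the replicate. Days 1 to 4 held at least 10 cells of each group, and a further day with 3 cells entered pooled values only. Animals were not named and the sources used here give no number of embryos per day, so the spread between days holds whatever differed between sessions. Total counts per cell ranged from 814 to 1982807, with medians of 256329 in RGCs, 334718 in IPCs and 240326 in ENs. One plate of 80 CAG_mRFP cells of day 3 had a median of 30740 counts. Levels are given as CPM, the usual count scaled to library size, over the summed counts of the cells named. In summed libraries, fewer cells with a transcript and less transcript per cell cannot be told apart, so shares of cells with a read are given beside the levels. Over days, the 9 radial glial markers summed to 3621 to 4401 CPM in RGCs and to 309.8 to 623.1 CPM in ENs. The 9 neuronal markers summed to 8201 to 8559 CPM in ENs and 186.01 to 441.2 CPM in RGCs. The 6 IPC markers separated IPCs from ENs less, at 2198 to 2753 CPM in IPCs and 1332 to 1830 CPM in ENs. Among them Sstr2 was higher in ENs (1016 pooled CPM) than in IPCs (449.7 CPM). Since the classes may have been assigned from these same transcriptomes, the markers are no independent check of the labels. Markers of inhibitory neurons, microglia and oligodendrocyte precursors summed to at most 12.7 CPM in any class and day. In RGCs those of endothelium reached 36.9 CPM on 1 day, those of meningeal fibroblasts 23.6 CPM and those of pericytes 3.36 CPM. Cajal-Retzius markers, 3 of 6 in the table, summed to 77.5 to 245.4 CPM in ENs and to at most 14.4 CPM elsewhere. In ENs, Nhlh2 was read in 23.6% and Reln in 5.21% of cells. The part of such cells in the EN values below was not tested.

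As background, class 3 semaphorins are secreted and bind neuropilins, which signal through plexins, while the other vertebrate semaphorins are bound to the membrane and act mainly on plexins directly. Ephrins are membrane-bound ligands of the Eph receptor tyrosine kinases, and can signal back into the cell that carries them. Netrins attract axons through Dcc and repel them through Unc5 receptors, and Slits repel through Robo receptors. In the developing cortex these families steer neuron migration and axon growth, and several are also used by progenitors in the ventricular zone.

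The sequences just upstream of 3 members are printed first. Efnb1 had the highest level per kilobase of exon in RGCs, although its day values in RGCs and ENs overlapped. Epha3 and Robo2 were higher in ENs than in RGCs on every day. Each sequence is the 250 bases before a RefSeq start in build GRCm38.p6, read 5′ to 3′ on the gene's strand. None holds an exon of the GENCODE vM21 annotation. Capitals mark an E-box, a short motif bound by basic helix-loop-helix factors such as the neurogenic ones. The E-boxes searched were CAGATG, on either strand, and CAGCTG, which reads the same on both strands, and the motifs do not overlap each other. The windows of Efnb1 and Epha3 held neither. Efnb1 lies at chrX:99135811-99136060 on the plus strand, Epha3 at chr16:63864176-63864425 on the minus strand and Robo2 at chr16:74411826-74412075 on the minus strand, 1 of 3 Robo2 starts. The windows of the other Robo2 starts, at chr16:75092771-75093020 and chr16:75447294-75447543, held neither motif and are not printed.
Efnb1: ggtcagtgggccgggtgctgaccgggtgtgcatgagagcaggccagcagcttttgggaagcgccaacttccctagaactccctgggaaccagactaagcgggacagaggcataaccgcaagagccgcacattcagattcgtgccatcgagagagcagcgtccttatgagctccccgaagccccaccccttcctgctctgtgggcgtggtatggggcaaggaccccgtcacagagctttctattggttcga
Epha3: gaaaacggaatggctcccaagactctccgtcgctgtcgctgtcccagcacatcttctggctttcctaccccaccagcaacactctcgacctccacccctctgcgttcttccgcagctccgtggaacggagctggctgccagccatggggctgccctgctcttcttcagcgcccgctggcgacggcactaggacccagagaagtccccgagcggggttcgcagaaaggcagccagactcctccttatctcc
Robo2: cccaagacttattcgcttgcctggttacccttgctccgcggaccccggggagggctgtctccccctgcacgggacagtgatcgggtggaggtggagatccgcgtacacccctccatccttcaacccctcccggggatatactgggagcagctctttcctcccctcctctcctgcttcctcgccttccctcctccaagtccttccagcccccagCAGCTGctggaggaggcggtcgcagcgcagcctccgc

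RefSeq windows were found for 53 of the 66 members, 69 windows in all. CAGATG stood in 7.25% of the members' windows and in 14.4% of 32851 windows of all genes, and CAGCTG in 13.04% and 13.001%. Among 11 members with a window that were higher in ENs than in RGCs on all days, Sema3c alone held CAGATG, at 200 bases before the start, and Robo2 alone held CAGCTG, at 37 bases before. The members' windows were rich in G and C, with a median of 64.4% against 52.4% over all windows. A match shows only that these letters are there.

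Of the 66 members, 25 reached 20 CPM in a class with a read in at least 10% of its cells, and 23 stayed under 5 CPM in every class. The table held 6 class 3, 6 class 4, 2 class 5 and 4 class 6 semaphorins, of which 2, 0, 2 and 2 reached that level. It was reached by 5 of 9 plexins, 1 of 2 neuropilins, 4 of 8 EphA and 2 of 5 EphB receptors, and 1 of 5 ephrin-A and 2 of 3 ephrin-B genes. It was also reached by Robo2 of 3 Robo genes, Slit1 of 2 Slits, Unc5d of 4 Unc5 genes and Dcc. Neither netrin did: Ntn1 averaged 4.59 ± 5.89 CPM (SD, n = 4 days) in RGCs, 0.0359 in IPCs and 0.0787 in ENs. Per kilobase of exon, the scale on which genes can be set side by side, Epha3 led in ENs (118.01 CPM per kb), before Plxna2 (59.2), Nrp1 (46.9), Sema6d (40.7), Epha4 (38.2), Robo2 (34.4) and Sema3c (33.8). In RGCs Efnb1 led at 55.3 CPM per kb, followed by Epha4 (29.6), Plxnb2 (21.4), Sema5b (18.8), Efnb2 (15.6) and Sema5a (15.4). In IPCs Epha3 (59.7), Efnb1 (35.1) and Plxna2 (26.1) led.

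The first comparison set the classes against each other. The classes may have been assigned from these same transcriptomes, so it is a description without a test, and a member is counted as higher or lower where its day values in 2 classes did not overlap. ENs were compared over days 2 to 4 and RGCs and IPCs over days 1 to 4. ENs carried more of Plxna2, Plxna3, Plxna4 and both neuropilins, of Robo2, Dcc and Unc5d, of Epha3, Epha5 and Ephb6 and of the ligands Sema3c, Sema6d and Sema4b, and less of the class 5 semaphorins, Sema6a, Unc5c and Ephb4. Of 43 members with at least 5 CPM in either class, 14 were higher in ENs than in RGCs on all days and 5 were lower. Over all 10716 genes these shares were 12.9% and 17.6%. The median log2 ratio of members was 0.40, against -0.18 over all genes. The classes also differ in sort group, since 88.7% of RGCs were Hes5_GFP and 84.4% of ENs were CAG_mRFP, and in median mitochondrial percentage, 1.33% in RGCs and 1.61% in ENs. The part of these in the class values was not tested, except where values within 1 sort group are given. Ratios of ENs over RGCs within CAG_mRFP cells rest on days 3 and 4, since CAG_mRFP RGCs numbered 2 on day 2. The ratios over all cells beside them rest on days 2 to 4. Sort group and the set of days cannot be told apart between the 2 values.

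**Figure D1:**
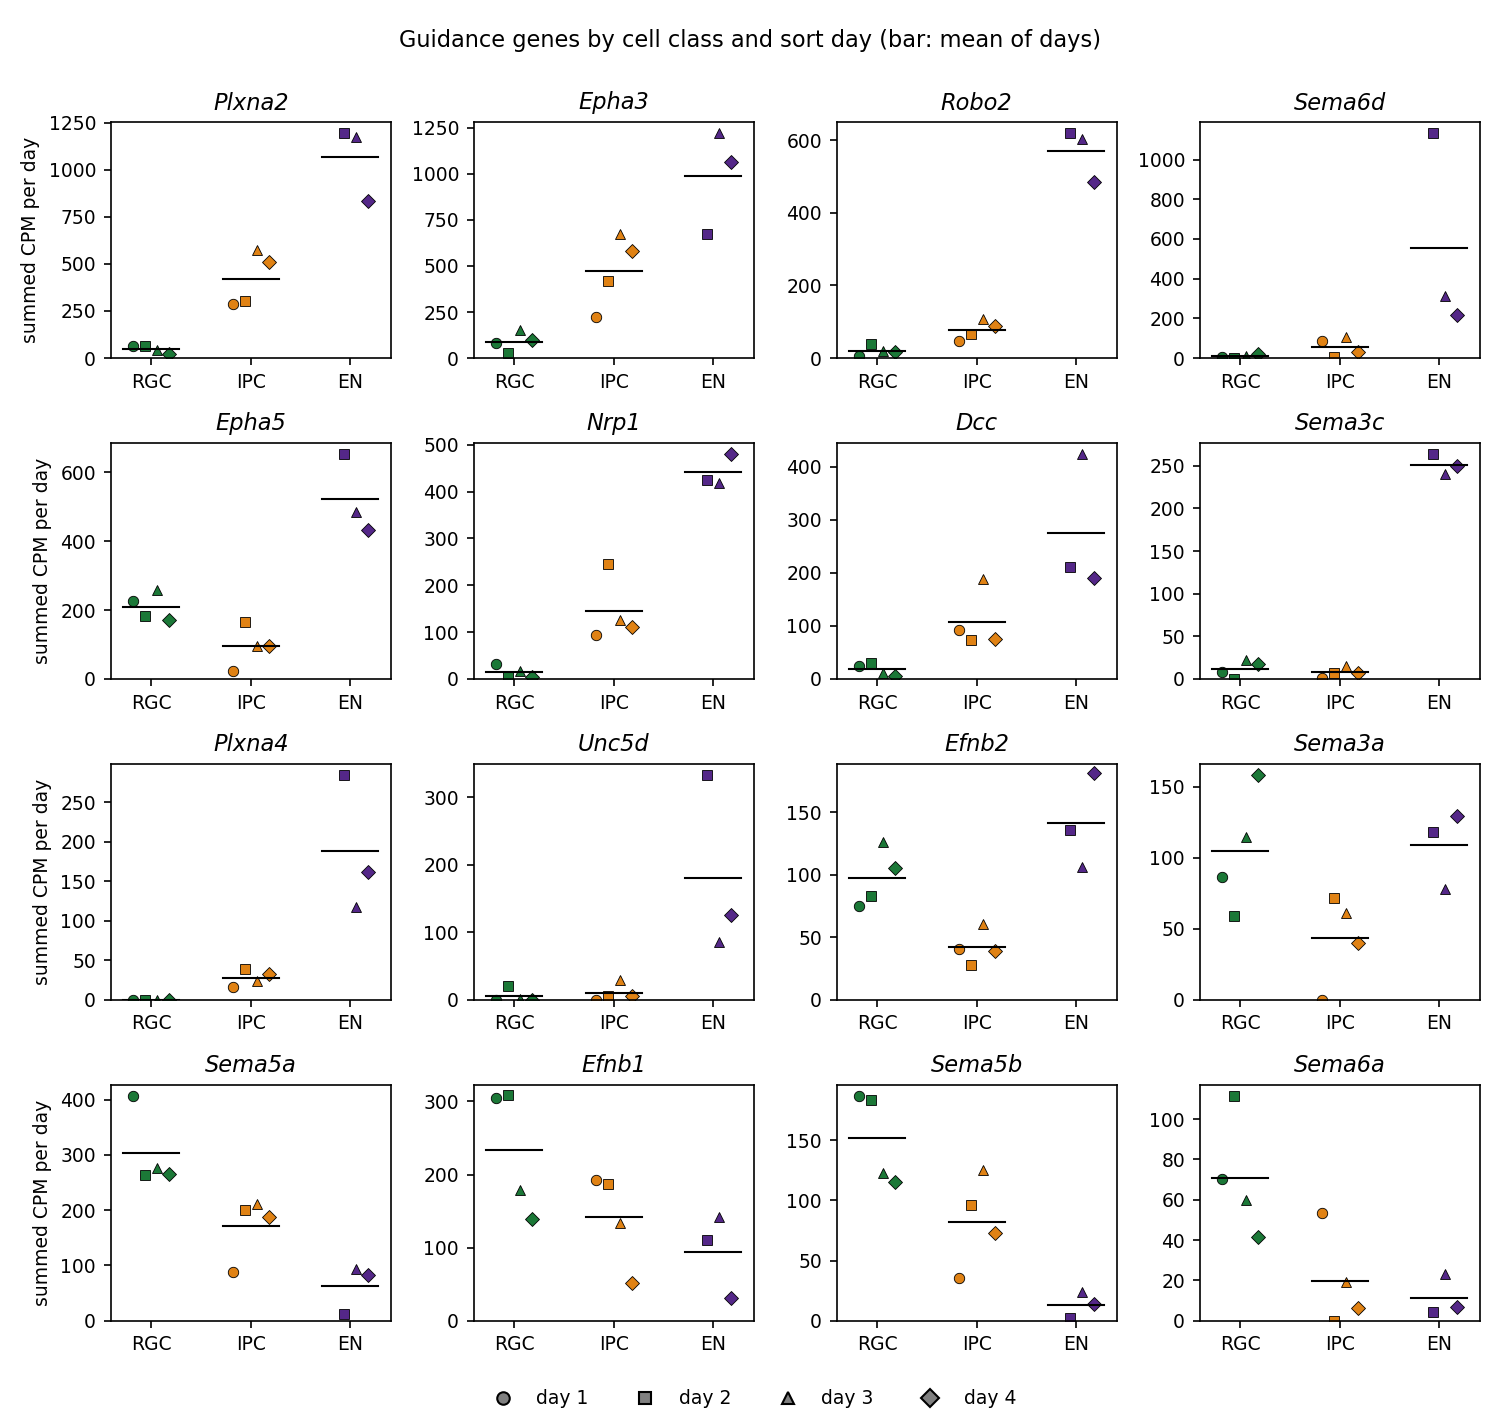
Summed CPM per sort day (vertical axes, each starting at 0) of 16 guidance genes in RGCs (green), IPCs (orange) and ENs (purple); each symbol is 1 sort day and the bar is the mean of days. Plxna2, Robo2, Nrp1 and Sema3c sit higher in ENs than in RGCs on every day, and Sema5a, Sema5b and Sema6a sit lower.

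Among the semaphorin receptors, Plxna2, Plxna4 and Nrp1 were lowest in RGCs and highest in ENs, with IPCs between. Plxna2, a receptor for class 3 and class 6 semaphorins, stood at 62.8, 63.3, 40.7 and 21.6 CPM in RGCs of days 1 to 4, at 286.5, 300.4, 575.2 and 507.6 CPM in IPCs, and at 1194, 1176 and 835 CPM in ENs of days 2 to 4. The 3 classes did not overlap on any day. The mean within-day log2 ratio of ENs over RGCs was 4.75 ± 0.50 (SD, n = 3 days), and Plxna2 was read in 20.4% of RGCs, 83.8% of IPCs and 87.8% of ENs. Plxna4, a partner of neuropilin 1, was nearly absent from RGCs, at no more than 0.274 CPM in RGCs on any day. It reached 16.5, 39.5, 24.4 and 32.9 CPM in IPCs and 284.4, 117.2 and 162.02 CPM in ENs. Its log2 ratio of ENs over RGCs, 7.34 ± 0.81 with 1 CPM added to both levels, depends on that addition and was 5.15 with 5 CPM. Plxna4 was read in 1.42% of RGCs and 51.7% of ENs at similar median depths. Its 3 antisense transcripts, which cannot be told from Plxna4 if counting ignored strand, stayed at or under 2.90 pooled CPM in every class.

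Nrp1, the neuropilin that binds Sema3a, stood at 31.9, 7.40, 17.8 and 3.46 CPM in RGCs, at 94.1, 246.2, 126.1 and 110.6 CPM in IPCs and at 425.6, 418.5 and 479.9 CPM in ENs. The classes were again in the same order without overlap (log2 ratio of ENs over RGCs 5.63 ± 1.14), and 99.6% of the Nrp1 counts in RGCs of day 1 came from 1 cell. Nrp2, which binds Sema3c and Sema3f, was low, at 43.9, 18.7 and 17.3 CPM in ENs and at most 0.261 CPM in RGCs. Plxna3 averaged 15.8 ± 8.93 CPM in RGCs, 25.9 ± 6.64 in IPCs and 77.8 ± 53.4 in ENs. Its log2 ratio of ENs over RGCs was 2.48 ± 0.54, and 4.63 within CAG_mRFP cells of days 3 and 4. The B-type plexins, receptors of class 4 semaphorins, did not share this order. Plxnb1 averaged 57.3 ± 26.6, 55.01 ± 4.01 and 50.7 ± 22.5 CPM in RGCs, IPCs and ENs, and Plxnb2 187.9 ± 80.6, 98.2 ± 44.5 and 130.3 ± 58.2 CPM. The day values of both overlapped in all 3 pairs of classes.

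The semaphorins themselves split by class. Sema3c, a secreted ligand, was the one whose EN values varied least between days, at 263.7, 240.8 and 249.7 CPM, against 8.16, 0.114, 22.2 and 17.2 CPM in RGCs and 1.46, 7.55, 15.3 and 7.50 CPM in IPCs. Its log2 ratio of ENs over IPCs was 4.58 ± 0.59. Over RGCs it was 5.02 ± 2.496, and 2.49 within CAG_mRFP cells of days 3 and 4. Sema3c was read in 39.2% of ENs. Sema6d, a transmembrane semaphorin, stood at 1133, 311.3 and 216.4 CPM in ENs, so that day 2, with 18 ENs, was far above the other days. It averaged 58.1 ± 46.98 CPM in IPCs and 10.4 ± 8.27 CPM in RGCs. Sema3a, the classical repellent of cortical axons, was read in 38.8% of RGCs, 18.3% of IPCs and 21.9% of ENs, and averaged 104.6 ± 42.2, 43.3 ± 31.8 and 108.6 ± 27.02 CPM. Its RGC and EN values overlapped, while ENs lay above IPCs on all days (log2 ratio 0.91 ± 0.69). Of the Sema3a counts in ENs of day 2, 86.2% came from 1 of the 2 cells with a read.

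The class 5 semaphorins, transmembrane proteins with thrombospondin repeats, ran the other way. Sema5a stood at 406.998, 263.4, 275.5 and 265.6 CPM in RGCs, at 87.4, 201.1, 211.3 and 186.8 CPM in IPCs and at 12.01, 94.5 and 82.6 CPM in ENs. Every RGC value lay above every IPC and EN value. The log2 ratio of ENs over RGCs was -2.52 ± 1.58. Sema5b stood at 186.8, 183.1, 122.8 and 115.1 CPM in RGCs and at 2.46, 23.9 and 14.05 CPM in ENs (log2 ratio -3.66 ± 1.82), with IPCs at 82.4 ± 38.1 CPM. Sema6a stood at 70.2, 111.4, 59.8 and 41.6 CPM in RGCs and at 4.12, 23.03 and 6.79 CPM in ENs (log2 ratio -2.75 ± 1.58). Within CAG_mRFP cells of days 3 and 4 the Sema6a ratio was -0.57. No class 4 semaphorin reached 20 pooled CPM with 10% of cells in any class. Sema4b, the highest of them, averaged 9.40 ± 5.97, 3.85 ± 4.14 and 23.3 ± 11.8 CPM in RGCs, IPCs and ENs. Its ENs and RGCs were barely apart, at 14.5 CPM in ENs of day 4 and 14.4 CPM in RGCs of day 3, and 98.6% of its EN counts of day 2 came from 1 cell. Sema7a, the single class 7 member, averaged at most 0.523 CPM in any class.

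Of the Eph receptors, Epha3, Epha4 and Epha5 were abundant. Epha3 stood at 83.9, 27.4, 151.6 and 96.6 CPM in RGCs, at 220.3, 416.02, 675.2 and 578.7 CPM in IPCs and at 674.9, 1222 and 1064 CPM in ENs, and was read in 30.7%, 86.4% and 90.3% of cells. RGCs did not overlap either other class, while the day 2 EN value and the day 3 IPC value differed by less than 1 CPM. The log2 ratio of ENs over RGCs was 3.67 ± 0.81, and 5.14 without the cells of cluster 7. Of the day 2 RGC counts of Epha3, 99.2% came from 1 of the 3 cells with a read. Epha5 was lowest in IPCs: 226.6, 183.3, 258.4 and 172.6 CPM in RGCs, 23.3, 165.9, 95.9 and 95.6 CPM in IPCs, and 654.4, 484.1 and 434.2 CPM in ENs. All 3 pairs of classes were separated, with log2 ratios of 1.35 ± 0.46 for ENs over RGCs, -1.41 ± 1.32 for IPCs over RGCs and 2.16 ± 0.18 for ENs over IPCs. Within CAG_mRFP cells of days 3 and 4 the first of these was 0.77. Epha4, which binds ephrins of both classes, averaged 239.6 ± 39.7, 188.4 ± 34.1 and 320.6 ± 74.5 CPM in RGCs, IPCs and ENs. Its EN values lay above its IPC values (log2 ratio 0.69 ± 0.30) and overlapped those of RGCs. Epha7 averaged 113.95 ± 6.27 CPM in RGCs, the smallest spread between days of the named members in RGCs relative to its mean, and 106.8 ± 93.97 CPM in ENs, where day 2 was at 4.06 CPM. Ephb2 averaged 29.9 ± 24.9 CPM in RGCs and 10.8 ± 1.92 in ENs, with overlapping days. Ephb6, an Eph receptor without kinase activity, averaged 8.19 ± 2.44 CPM in RGCs and 52.3 ± 19.6 in ENs (log2 ratio 2.65 ± 0.82).

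The ephrins differed from each other in their order of classes. Efnb1 stood at 305.1, 308.98, 179.3 and 139.6 CPM in RGCs, at 192.9, 187.4, 133.3 and 51.5 CPM in IPCs and at 110.03, 141.5 and 31.5 CPM in ENs, and was read in 80.7%, 62.8% and 45.8% of cells. Its ENs over RGCs log2 ratio was -1.31 ± 0.90, below 0 on 3 of 3 days, although the day values of the classes overlapped. Efnb2 was lowest in IPCs, at 40.9, 28.2, 60.6 and 39.3 CPM, against 97.4 ± 23.2 CPM in RGCs and 141.2 ± 37.6 in ENs. IPC values lay below those of both other classes, with a log2 ratio of -1.21 ± 0.31 over RGCs. Epha5 was likewise lowest in IPCs, and Epha4, Epha7, Sema3a and Plxnb2 also had their lowest mean over days there. Among the ephrin-A genes, Efna5 averaged 39.8 ± 36.7 CPM in ENs and was read in 14.2% of them, and the other 4 stayed under 20 pooled CPM in every class.

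Of the Slit and netrin receptors, Robo2, Dcc and Unc5d were highest in ENs. Robo2 stood at 5.24, 39.5, 20.4 and 17.9 CPM in RGCs, at 48.1, 66.5, 106.9 and 89.4 CPM in IPCs and at 619.5, 602.5 and 485.8 CPM in ENs. All 3 classes were separated (log2 ratio 4.48 ± 0.47 for ENs over RGCs, 2.70 ± 0.43 for ENs over IPCs), and 83.3% of ENs had a read. Of the Robo2 counts in RGCs of day 2, 97.7% came from 1 cell. Robo1 and Robo3 stayed under 10 pooled CPM in every class. Dcc stood at 25.2, 30.4, 11.2 and 5.92 CPM in RGCs, at 91.9, 72.8, 188.6 and 75.6 CPM in IPCs and at 210.7, 424.4 and 190.1 CPM in ENs. The classes kept that order on all days. The log2 ratio of ENs over RGCs was 4.22 ± 1.28, and 7.07 within CAG_mRFP cells of days 3 and 4. Of the Dcc counts in RGCs of day 1, 99.9% came from 1 cell. Unc5d, a repulsive netrin receptor that also binds FLRT proteins, stood at 333.1, 85.5 and 125.2 CPM in ENs and at no more than 29.1 CPM elsewhere (log2 ratio of ENs over RGCs 5.12 ± 1.34). Unc5c had no read in any EN, which allows a share of up to 1.04% of cells at this depth, and averaged 24.4 ± 16.6 CPM in RGCs. Ephb4 likewise had no read in ENs and averaged 12.9 ± 9.91 CPM in RGCs. Unc5c, Ephb4, Sema5a, Sema5b and Sema6a were the 5 members lower in ENs than in RGCs on all days, and Unc5c and Ephb4 fall outside the level rule and were chosen after their values were seen.

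Slit1, a ligand of Robo receptors, was read in 15.7% of IPCs, 2.20% of RGCs and 2.78% of ENs, and was among the 3 members lower in ENs than in IPCs on all days, with Sema5b and Ephb4. It stood at 55.3, 51.7, 6.34 and 19.6 CPM in IPCs and at 0, 2.02 and 0.409 CPM in ENs. In RGCs it stood at 2.46, 55.3, 0.248 and 0.0117 CPM, and 99.9% of the day 2 counts came from 1 cell. Over all genes, 9.03% were lower in ENs than in IPCs on all days. In the opposite direction 19 of 40 members were higher in ENs than in IPCs on all days, against 10.3% of 10301 genes, and the median log2 ratio of members was 1.06 against 0.03. Of 39 members compared between IPCs and RGCs, 6 were higher in IPCs on all days (Plxna4, Nrp1, Plxna2, Dcc, Epha3 and Robo2), where 3.91% of all genes were. The 5 lower in IPCs were Sema4d, Epha7, Epha5, Efnb2 and Sema5a, where 7.73% of all genes were. The median of members was -0.35 and that of all genes -0.23.

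The authors' 8 clusters divided the classes further, and since they were made from these cells they too are only described. Clusters 0, 1, 3 and 7 held mainly RGCs, clusters 4 and 6 mainly IPCs, and clusters 2 and 5 mainly ENs. Every cell of cluster 3 and 88.98% of cluster 4 were called G2M, while 75.3% of cluster 6 were called G1. Cluster 7 had a median of 1168 detected genes, against 2514 to 3895 in the others. Members with a read in at least 10% of cells numbered 17, 22 and 19 in clusters 0, 1 and 3, 26 and 25 in clusters 4 and 6, 24 and 28 in clusters 2 and 5, and 10 in cluster 7. With every cell thinned to 50000 counts and shallower cells left out (70 RGCs, 13 IPCs and 40 ENs), these counts were 17, 19, 17, 23, 21, 23, 25 and 14.

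**Figure D2:**
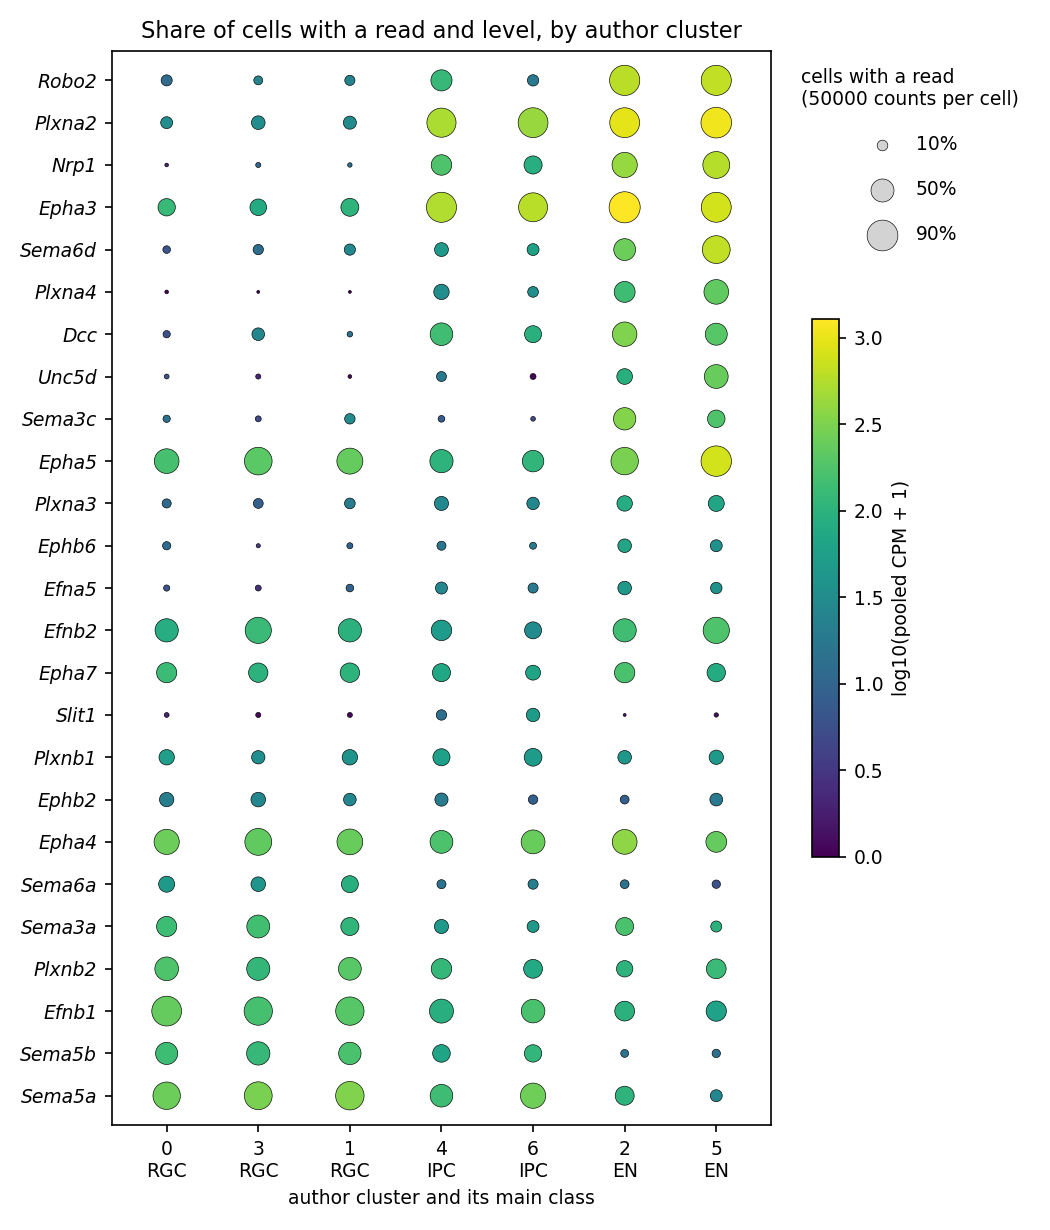
Share of cells with a read after thinning to 50000 counts (circle area) and pooled CPM (colour, log10 scale of CPM + 1) of the 25 members that reached the level rule, in 7 of the authors' clusters; cluster 7 is not drawn. Robo2, Plxna2 and Nrp1 have large circles in clusters 2 and 5, and Robo2 has a larger circle in cluster 4 (42.1% of cells) than in cluster 6 (11.5%).

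The clusters of ENs differed in their receptor sets. Epha5 stood at 385.4 and 272.7 CPM in cluster 2 on days 3 and 4 and at 844 and 706.7 CPM in cluster 5, and was read in 68.05% and 88.9% of cells. Unc5d went the same way, at 31.9 and 107.3 CPM in cluster 2 and 214.2 and 174.4 CPM in cluster 5. Sema6d was read in 40.8% of cluster 2 and 72.6% of cluster 5. Epha3, at 1372 and 1231 CPM against 924 and 885 CPM, and Sema3c, at 293.3 and 378.4 CPM against 172.3 and 142.5 CPM, were higher in cluster 2 on both days. Sema5a, the progenitor-enriched semaphorin, was read in 36.1% of cluster 2 and 17.1% of cluster 5. Robo2, Plxna2 and Nrp1 were read in both, Robo2 in 84.02% and 86.3% of cells. Among the IPC clusters, Robo2 stood at 134.6 and 109.6 CPM in the G2M-rich cluster 4 and at 46.8 and 18.7 CPM in the G1-rich cluster 6 on days 3 and 4. Sema5a ran the other way, at 139.4 and 130.6 CPM in cluster 4 and 340.3 and 306.9 CPM in cluster 6.

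The second comparison asked how the sort groups differed, a contrast set by fluorescence and not by these genes. Overlap of day values between the groups is a description, and the share of all genes without overlap was not counted. Over all cells Hes5_GFP carried less Robo2 and Plxna2 than CAG_mRFP. Robo2 stood at 20.5, 72.9, 61.8 and 51.2 CPM in Hes5_GFP on days 1 to 4 and at 310.9, 451.6, 422.2 and 392.9 CPM in CAG_mRFP. The groups did not overlap. The fitted log2 ratio was -3.06 ± 0.28 (SE; adjusted p = 0.0230 in edgeR's quasi-likelihood test, by Benjamini and Hochberg's method over 10517 genes; lower on 4 of 4 days). Plxna2 stood at 83.8, 339.5, 177.1 and 152.2 CPM in Hes5_GFP and at 424.9, 741, 906 and 738 CPM in CAG_mRFP, again without overlap (log2 ratio -2.03 ± 0.26, adjusted p = 0.0450 in the same edgeR test, lower on 4 of 4 days). These were the 2 lower among 42 members tested, and 0 were higher, where 0.342% of all genes were called lower and 0.0571% higher. Both sit beside a difference in class makeup, since RGCs were 77.2% of Hes5_GFP and 18.8% of CAG_mRFP cells. Without day 2, 3 or 4 neither passed in edgeR's test: the adjusted p of Robo2 was then 0.137, 0.230 and 0.180, and that of Plxna2 0.0631, 0.317 and 0.332. Without the day block Plxna2 had an adjusted p of 0.0997 in edgeR's test.

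**Figure D3:**
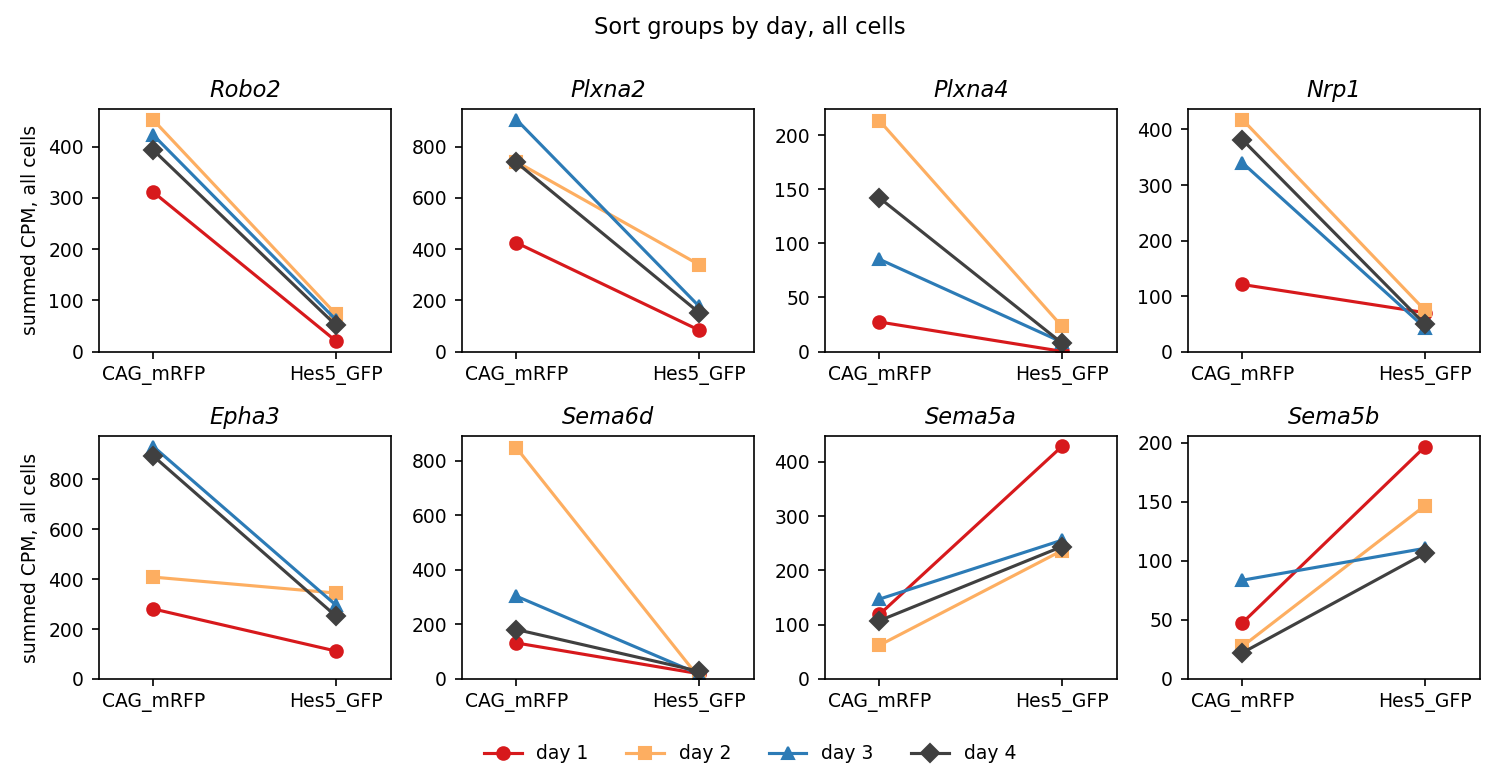
Summed CPM over all cells (vertical axes, each starting at 0) in CAG_mRFP and Hes5_GFP, with 1 line per sort day, for 8 guidance genes. Robo2, Plxna2, Plxna4, Nrp1, Epha3 and Sema6d are lower in Hes5_GFP on all 4 days, and Sema5a and Sema5b are higher; of these 8, Robo2 and Plxna2 alone passed in edgeR's test.

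A further 14 members had an unadjusted p under 0.05 without passing, 16 with Robo2 and Plxna2, where 13.6% of all genes did. Among them Plxna4 (log2 ratio -4.21 ± 0.73), Nrp1 (-2.33 ± 0.43), Epha3 (-1.27 ± 0.29), Dcc (-1.38 ± 0.34) and Epha5 (-0.82 ± 0.22) were lower in Hes5_GFP, and Sema5a (1.44 ± 0.26) and Sema5b (1.80 ± 0.41) were higher. Sema5a, for example, stood at 428.4, 236.4, 255.5 and 243.7 CPM in Hes5_GFP and at 118.6, 61.95, 146.97 and 107.2 CPM in CAG_mRFP, and the groups did not overlap. Its adjusted p was 0.0985 in edgeR's quasi-likelihood test. Epha4 was close to equal, at 253.002 ± 29.7 CPM in Hes5_GFP and 240.1 ± 77.1 in CAG_mRFP (log2 ratio 0.13 ± 0.28). DESeq2 called 15 members, 3 higher and 12 lower, where it called 5.43% of all genes higher and 5.63% lower.

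Genes that act beside these ligands and receptors were grouped by function into 4 lists. Of 19 tested effectors of plexins and neuropilins, 2 were lower in Hes5_GFP over all cells: Crmp1 (log2 ratio -2.17 ± 0.21, adjusted p = 0.0289 in edgeR's test) and Dpysl3 (-2.78 ± 0.15, adjusted p = 0.00788 in edgeR's test), collapsin response mediators that bind the cytoskeleton. Of 16 other guidance and coreceptor molecules 1 was lower, the adhesion molecule L1cam (-3.31 ± 0.40, adjusted p = 0.0376 in edgeR's test). Of 19 effectors of netrins, Slits and Robos and 9 of ephrins, 0 were called by edgeR's test, with 3 and 1 at an unadjusted p under 0.05. The most abundant of the first were Enah (-0.67 ± 0.19) and Pak3 (-0.16 ± 0.27), and of the second Adam10 (-0.23 ± 0.21) and Chn1 (-0.84 ± 1.19). The medians of the 4 lists were -0.43, -1.17, -0.30 and -0.84, against 0.15 over all genes. Between the classes, with no test, and where 12.9% of all genes were higher in ENs than in RGCs on all days and 17.6% lower, 8 of 19 plexin and neuropilin effectors were higher and 1 was lower, the higher ones including Crmp1 at 1470.3 against 65.1 CPM and Rnd2 at 242.4 against 9.06 CPM. Of 20 netrin, Slit and Robo effectors 4 were higher and 3 were lower, the latter near the share of all genes. Chn1, Chn2, Grip1 and Kalrn were the 4 of 9 ephrin effectors that were higher.

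Within a class edgeR called no member. In RGCs, over days 1, 3 and 4, 0 of 35 members were called by edgeR or DESeq2, where edgeR called 0% of all genes in either direction and DESeq2 1.21%, and 1 had an unadjusted p under 0.05 in edgeR's quasi-likelihood test (2.04% of all genes). This was Efnb2, a ligand and reverse-signalling ephrin, at 39.9, 122.2 and 99.05 CPM in Hes5_GFP and 147.99, 182.9 and 205.4 CPM in CAG_mRFP (log2 ratio -1.17 ± 0.44, unadjusted p = 0.0341 and adjusted p = 0.999 in edgeR's test). The groups did not overlap. Sema5b stood at 232.6, 125.4 and 116.6 CPM in Hes5_GFP RGCs and at 90.6, 84.3 and 93.2 CPM in CAG_mRFP RGCs, also without overlap (log2 ratio 0.75 ± 0.43, adjusted p = 0.999 in edgeR's test). CAG_mRFP RGCs numbered 13, 39 and 16 on these days. The share of all genes without overlap between the groups was not counted in RGCs. On days 3 and 4 plate and group were largely the same and cannot be told apart.

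In IPCs, over days 3 and 4, 0 of 39 members were called by edgeR, where 0% of all genes were, and 4 had an unadjusted p under 0.05 (2.78% of all genes); DESeq2 called 6, and 4.33% of all genes. Efnb1 stood at 154.2 and 65.4 CPM in Hes5_GFP and 83.5 and 19.3 CPM in CAG_mRFP, and its groups overlapped although each day's ratio was above 0 (log2 ratio 1.32 ± 0.46). Epha5 stood at 74.2 and 71.6 CPM in Hes5_GFP and 147.6 and 151.6 CPM in CAG_mRFP (log2 ratio -1.04 ± 0.36). The other 2 were low: Plxna3, at 22.4 and 38.2 against 1.33 and 1.68 CPM, and Ephb6, at 27.9 and 12.3 CPM against no read. Plate and group were largely the same on these days and cannot be told apart in these IPC values.

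In ENs, over days 3 and 4, edgeR called 0 of 35 members and 0% of all genes, 6 members had an unadjusted p under 0.05 (3.18% of all genes), and DESeq2 called 9 members and 7.86% of all genes. Hes5_GFP ENs were 22 and 21 cells on these days, 18.6% and 14.2% of the ENs. Their values of several EN-enriched members lay below those of CAG_mRFP ENs. Plate and group were largely the same on these days and cannot be told apart in any EN value that follows. Sema3c stood at 98.98 and 72.9 CPM in Hes5_GFP and 286.3 and 281.1 CPM in CAG_mRFP (log2 ratio -1.74 ± 0.35). Sema6d stood at 170.7 and 63.03 against 356.3 and 243.7 CPM (-1.50 ± 0.37), and Epha5 at 292.2 and 239.7 against 545.5 and 468.7 CPM (-0.93 ± 0.26). None of the 3 overlapped between groups over these days, and the share of all genes without overlap was not counted. Unc5d stood at 31.7 and 51.6 against 102.7 and 138.2 CPM (-1.56 ± 0.51), and Plxna4 at 77.4 and 59.7 against 130.004 and 180.2 CPM (-1.17 ± 0.46). Dcc was the exception, at 606.8 and 266.98 CPM in Hes5_GFP and 365.95 and 176.4 CPM in CAG_mRFP (0.66 ± 0.27). The adjusted p of each was 0.999 or more in edgeR's test. Robo2, the member called over all cells, stood at 528.7 and 375.03 against 626.2 and 505.5 CPM in ENs.

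**Figure D4:**
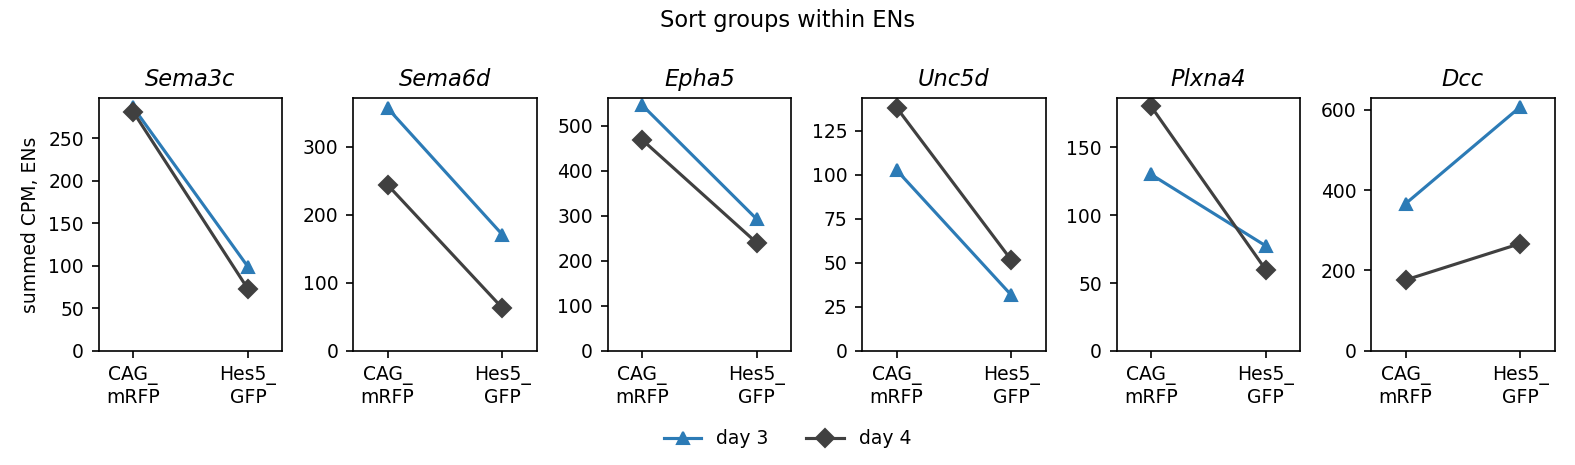
Summed CPM in ENs (vertical axes, each starting at 0) of the 6 members with an unadjusted p under 0.05, in CAG_mRFP and Hes5_GFP, with 1 line for day 3 and 1 for day 4. Sema3c, Sema6d, Epha5, Unc5d and Plxna4 are lower in Hes5_GFP on both days and Dcc is higher; none of the 6 passed in edgeR's test, and all 6 passed in DESeq2.

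The EN clusters were unequally shared between the groups. Of 45 Hes5_GFP ENs, 27 were in cluster 2, 8 (17.8%) in cluster 5 and 10 (22.2%) in the IPC-rich cluster 6, and of the CAG_mRFP ENs 52.7%, 44.03% and 3.29% were. Epha5, Unc5d, Sema6d and Nrp1 were among the members that stood higher in cluster 5 than in cluster 2 on both days, and Plxna4 did so on day 3 only. Within the ENs of cluster 2 alone, 13 Hes5_GFP cells on each day and 57 and 67 CAG_mRFP cells, Sema3c stood at 92.1 and 118.1 CPM in Hes5_GFP against 368.9 and 436.96 CPM in CAG_mRFP. Sema6d stood there at 179.7 and 38.9 against 375.3 and 192.4 CPM. Epha5 stood at 342.95 and 151.6 against 363.9 and 299.97 CPM, so that its day 3 values were nearly equal. Unc5d stood at 3.73 and 51.2 against 41.9 and 119.9 CPM, and Plxna4 at 65.1 and 60.6 against 76.1 and 218.5 CPM. Dcc stood at 567.96 and 369.2 against 432.7 and 194.5 CPM. The part of cluster makeup in the EN differences was not tested.

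The last comparison took the cell cycle phase called by the authors, G2M against G1, within Hes5_GFP RGCs over days 2 to 4. Of 35 members tested, edgeR and DESeq2 called 0, edgeR called 0% of all genes, and 1 member had an unadjusted p under 0.05 (2.92% of all genes). Sema6a, a transmembrane semaphorin, stood at 94.6, 47.2 and 25.6 CPM in G2M and at 418.4, 106.2 and 76.4 CPM in G1 (log2 ratio -1.63 ± 0.44, adjusted p = 0.937 in edgeR's quasi-likelihood test). It was lower in G2M on 3 of 3 days, with overlapping ranges. The day 2 G1 value is a sum over 7 cells, and 56.2% of the Sema6a counts in RGCs of day 2 came from 1 cell. Efnb1, the most abundant member per kilobase in these cells' class, stood at 359.3, 192.2 and 137.9 CPM in G2M and at 230.8, 203.1 and 120.8 CPM in G1.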

How the data were processed

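The deposited table holds expected counts per gene and cell, whole numbers that appear rounded from fractional ones: 2.74% of nonzero entries of the deposited natural log table lay more than 0.01 from a whole count when converted back, and 5.32% were listed as 0 among the counts. The deposited natural log values, taken of 1 plus the counts scaled to a fixed total per cell, were used for that check alone. The mitochondrial share was deposited as a fraction and is printed as a percentage. Cell class, cluster and phase are the authors' labels. HISAT2, Seurat 2 and build mm10 appear in the submitters' processing notes without a role. The sources used here do not name the annotation, the counting tool or the use of strand.

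Counts were summed per sort day and group, and tested with edgeR 4.0.16 (quasi-likelihood test, day as a block, library size as total counts, at least 5 CPM in either group, Benjamini-Hochberg threshold 0.05, R 4.3.3). The day pairs the groups because the authors' metadata give each cell's sort day. Plate and group were largely the same on days 3 and 4 and cannot be told apart there. Class ratios are means of within-day log2 ratios after adding 1 CPM. DESeq2 1.42.0, limma 3.58.1, TMM scaling, no minimum, no block and leaving out each day were alternatives, and leaving out the shallow plate or cluster 7 was chosen after seeing the data. The script for the test was tested on simulated data. Members and lists were chosen with earlier results of these data known. Named members reached 20 CPM and 10% of cells in a class, passed a test, or were the highest of their family. Doublets were not called. Upper limits for a count of 0 are 3 cells of those in the class and cover counting error only.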

Additional observations from a re-analysis of the deposited data

Results flagged for a closer look

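Of 91 sets of 4 day values, 6 held a day far from the other days, where chance gives about 1 in 20. Dcc reached 188.6 CPM in IPCs on day 3. Sema3c was at 14.1 CPM in CAG_mRFP on day 1, read in 2 cells, with 93.6% of the counts in 1 of them. Sema5a was highest on day 1, at 428.4 CPM in Hes5_GFP and 406.998 CPM in RGCs. Slit1 reached 55.3 CPM in RGCs on day 2, with 99.9% of the counts in 1 cell, and Unc5d 21.2 CPM in RGCs on day 2, with 98.7% in 1 cell.

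For 6 members the sort groups differed in opposite directions in 2 classes on every day used, as the mean log2 ratio of Hes5_GFP over CAG_mRFP after adding 1 CPM. These differences were not tested, and the share of all genes with such opposite directions was not counted. RGC ratios used 3 days, and IPC and EN ratios 2, so few that opposite signs on every day can readily arise by chance. Of the Dcc counts in RGCs of day 1, 99.9% came from 1 of 2 cells with a read. For Dcc the ratio was 3.32 in RGCs, -0.34 in IPCs and 0.66 in ENs. This is a difference of 3.66 between RGCs and IPCs and of -1.005 between IPCs and ENs. For Plxna3 the ratio was 3.60 in IPCs and -1.32 in ENs, 4.92 apart. For Plxnb2 it was 0.72 in RGCs, 0.19 in IPCs and -1.19 in ENs, so that ENs differed by 1.91 from RGCs and by 1.38 from IPCs. Efnb1 differed by 1.67 between IPCs and ENs and Epha3 by -0.68. Epha4 differed by 0.41 between RGCs and ENs and by 0.76 between IPCs and ENs.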

How the results depend on the processing

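No called class ratio and no sort or phase ratio that was followed reversed its direction under the alternatives run. Over all cells, 2 members and 0.399% of genes were called with the replicate block of sort day. Without the replicate block 1 member and 0.171% of genes were called, with DESeq2 15 and 11.1%, and with limma on the mean of per-cell CPM 11 and 3.67%. Leaving out 1 day gave 0 to 6 members and 0 to 2.43% of genes, the highest without day 1 and 0 without day 2, 3 or 4. The adjusted p of Robo2 ran from 9.96e-26 to 0.230 and passed in 9 of 12 settings, and that of Plxna2 from 6.40e-14 to 0.332 and passed in 8 of 12. Within RGCs, where 0 genes were called, DESeq2 called 1.21% of genes and the fit with no minimum CPM 0.00613%. Within IPCs DESeq2 called 6 members and 4.33% of genes, and limma 0.120% of genes. Within ENs DESeq2 called 9 members and 7.86% of genes. Between phases, where 0 genes were called, DESeq2 called 1.39% of genes, limma 0.530%, the fit without the replicate block 0.0580%, the fit with no minimum CPM 0.0126%, and leaving out 1 day 0.460% to 1.37%. The cause was not tested. Leaving out a day within IPCs or ENs was not run, since 1 remaining day leaves no residual degrees of freedom.

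Members lower in ENs than in RGCs on all days numbered 5, and 6 to 10 with 1 day left out or 3 within CAG_mRFP cells. Those lower in IPCs than in RGCs numbered 5, and 6 to 11 with 1 day left out or 9 within Hes5_GFP cells. Those lower in ENs than in IPCs numbered 3, and 4 to 6 with 1 day left out or 1 within CAG_mRFP cells. Fewer days make overlap less likely by construction. Of the class ratios under the alternatives, 747 moved by less than the spread between days and 33 by more. For each of days 1 to 4 left out, all 78 ratios moved by less. That outcome was fixed, since leaving out 1 day cannot move a mean of days by as much as their spread. Within 1 sort group, 25 ratios moved by more and 53 by less. With 2 to 4 days a group and as few as 7 cells in a sum, the depth limits what could be detected for low members such as Ntn1 and Sema7a.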

Other observations

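Reads of pairs of members, partners or not, were counted in the same cells. This used the ENs with at least 50000 counts, each thinned to that number. Plxna2 was read in 92.9% of ENs with an Nrp1 read and in 79.6% of the others, and Plxna4 in 53.5% and 35.5%. Epha5 was read in 78.4% of ENs with an Epha3 read and in 69.2% of the others. Unc5d was read in 31.3% of ENs with a Dcc read and in 37.7% of the others. Efnb2 was read in 54.7% of ENs with an Efnb1 read and in 54.9% of the others. Cells of 1 sort day share their source, so these shares are given without a test.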
